A study of Vitis rotundifolia with 12 samples.

Results

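In pedicels of muscadine grape (Vitis rotundifolia), 198 of 26394 gene models had lower RNA levels at maturity than at the pea-size stage in Ga. 12-3-22 (W), whose fruit are weakly attached, while their mean level in Ga. 6-1-269 (S), whose fruit are strongly attached, stayed close to its pea-size value. The members were chosen on the measured values. Counts were scaled to CPM, the counts of a gene model per 1000000 counts of its library. A gene model was kept where all 3 maturity libraries of W were below all 3 pea-size libraries of W, where the maturity over pea-size ratio in W was at most 0.5 with a W pea-size mean of at least 5 CPM, and where the same ratio in S was within 1.5-fold of 1 in either direction (the flat band), with 0.5 CPM added to each group mean. The fall in W, the flat mean in S and the difference between them are therefore properties of the choice, and they are given below as a description.

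The study asked which genes differ between a genotype whose fruit leave the pedicel easily at maturity and one whose fruit stay firmly attached. RNA was sequenced from pedicel tissue in 4 groups of 3 libraries each, W maturity, W pea-size, S maturity and S pea-size, which the study describes as biological replicates. Each genotype is 1 breeding selection, so a difference between W and S is a difference between these 2 selections. All pedicels came from plants grown at Citra, Florida, and were frozen in liquid nitrogen, with no other treatment in the labels.

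The stalk that carries a grape berry ends in an abscission zone, a band of small cells at the junction with the fruit. Fruit separate when the middle lamella between these cells is dissolved by wall-loosening enzymes such as polygalacturonases and cellulases, a process that ethylene promotes and that auxin arriving from the fruit holds back. Between the young and the ripe stage the same stalk also ends its own growth and stops supplying a growing berry, so a stage comparison of the pedicel covers more than abscission. The identifiers of the gene models were not paired with gene names or functions in the sources used here. The members are therefore described by their values and chromosome, and neither their roles nor marker genes of pedicel cell types could be checked. In a bulk tissue, fewer cells of a type and less RNA per cell cannot be told apart.

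The libraries held 4705119 to 21971736 counts in gene models, with a median of 11427219. One library stood apart, S maturity replicate 1, in which a single gene model on chromosome 2 took 12.3% of the counts, 30.4% of the reads lay outside gene models and the Spearman correlation across gene models with the other libraries of its group was 0.817 and 0.836, against 0.967 between those others. Replicates of every group differed by more than counting error (lowest chi-square per degree of freedom between a pair, 11.6), and p-values rest on the spread between 3 libraries per group. Several of the results that rest on S maturity replicate 1 are also given without it.

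Together the members took 0.371% ± 0.0123 of all counts in W maturity and 1.06% ± 0.0274 in W pea-size, and 0.819% ± 0.131 in S maturity and 0.875% ± 0.0155 in S pea-size (SD, n = 3 each). The summed level of the members was 3572, 3815 and 3733 CPM in the W maturity libraries, against 10633, 10315 and 10860 CPM in the W pea-size libraries. In S it was 6958, 8032 and 9565 CPM at maturity, against 8567, 8843 and 8828 CPM at pea-size. The W stages were separated by a wide gap, and the S maturity libraries lay on both sides of the S pea-size libraries. At maturity every S library was above every W library, whereas at pea-size every W library was above every S library. The rule took gene models that were high in W pea-size and low in W maturity, with no floor in S. This order of the genotypes therefore rests on the chosen values and is a description only. The ratio of the means was 0.350 in W and 0.936 in S, and the S maturity mean was 8799 CPM without its replicate 1.

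**Figure D1:**
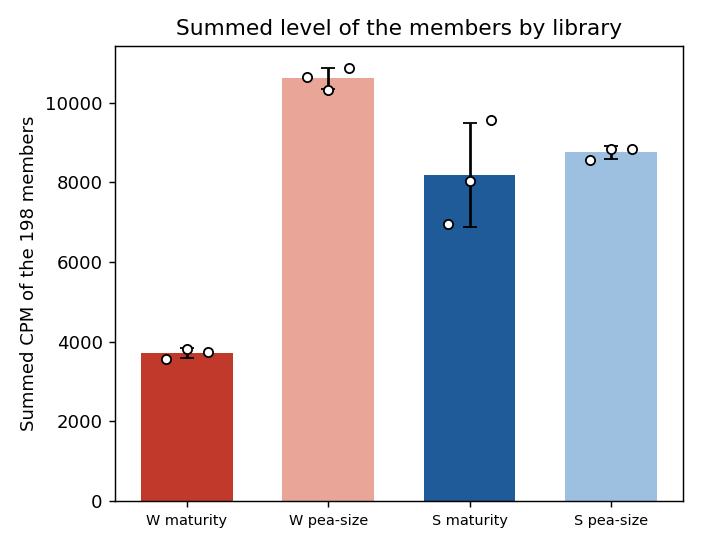
Summed CPM of the 198 members in each group, as the mean (bar), SD (error bar) and the 3 libraries (points). W maturity lies near 3706 CPM and W pea-size near 10603 CPM, while S maturity spreads from 6958 to 9565 CPM around the S pea-size bar of 8746 CPM.

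The rule took members from 526 gene models that met its conditions in W. Of these, 37.6% were flat in S by the mean, 217 had an S ratio below the band and 111 had one above it. Among the 12537 gene models at or above 5 CPM in W pea-size, the members made up 1.58%. The nearest values at the borders of the rule were a W ratio of 0.499 inside and 0.501 outside, a W pea-size mean of 5.34 CPM inside and 4.95 CPM outside, a lower S ratio of 0.6672 inside and 0.6663 outside, and an upper S ratio of 1.499 inside and 1.536 outside. A further 186 gene models missed only the condition that the W libraries do not overlap, and 38 with a W ratio of 0.5 to 0.55 met every other condition. No gap in these values separated the members from the gene models outside the rule.

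**Figure D2:**
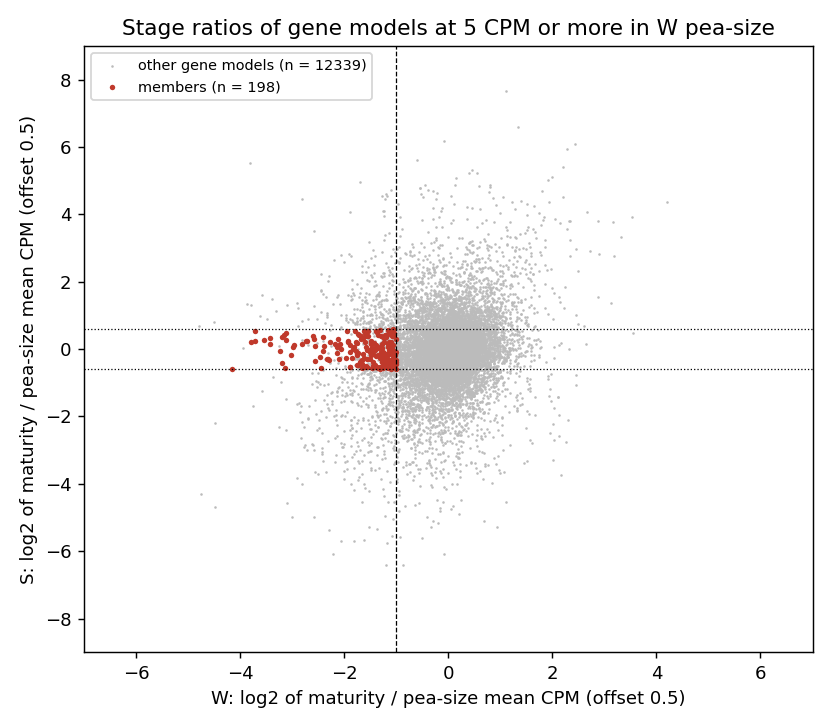
Log2 of the maturity over pea-size ratio of group mean CPM in W (horizontal) and in S (vertical) for the 12537 gene models at 5 CPM or more in W pea-size, with 0.5 CPM added to each mean. The 198 members (red) fill the area left of the dashed line (W ratio 0.5) and between the dotted lines (S ratio within 1.5-fold of 1), with other gene models (grey) on all sides of it; grey points inside that area have overlapping W libraries.

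Members spanned a wide range of levels. The median of the group means over the 198 members was 7.80 CPM in W maturity and 24.3 CPM in W pea-size, and 17.6 CPM in S maturity and 18.7 CPM in S pea-size. At the pea-size stage of W, 34 members had a mean of 5 to 10 CPM, 105 of 10 to 50 CPM, 33 of 50 to 100 CPM and 26 of 100 CPM or more. In S the rule set no floor, and 22 members had an S mean below 5 CPM. Both S means were below 1 CPM in 4 of these, and there a flat ratio says little more than that the gene model was barely counted at either stage.

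With 0.5 CPM added to each mean, as in the rule, the fall in W was between 2.003-fold and 17.9-fold. Its median was 2.697-fold, with quartiles at 2.26-fold and 3.59-fold. The added 0.5 CPM holds the fold down where W maturity was near 0. A member on chromosome 6 with means of 6.38 CPM in W pea-size and 0.135 CPM in W maturity thus stood at 10.8-fold. By the rule the W stages of all members did not overlap, which was true in this direction of 7.33% of all gene models tested. A ratio of at most 0.25 was reached by 41 members. The 3 W maturity libraries did not carry the fall to the same extent: relative to the W pea-size mean, the median member stood at 0.257 in replicate 1, 0.398 in replicate 2 and 0.383 in replicate 3. All 3 libraries were at or below 0.5 in 108 members. The gap between the stages was often narrow, since the lowest W pea-size library was a median 1.41 times the highest W maturity library and at least 2 times in 34 members. At least 1 W maturity library held no count in 21 members. A single member, on chromosome 1, was at 0 in all 3, against 10.9, 4.14 and 3.12 CPM at pea-size. Without the added 0.5 CPM, this is at least 49.1-fold lower at maturity when 3 counts over the group are taken as the floor.

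With edgeR's quasi-likelihood test across 18439 gene models (Benjamini-Hochberg adjusted p of at most 0.05 and a log2 fold change, log2FC, of at least 1 in size), 30 of the 198 members were called lower at maturity in W, where 0.499% of all gene models tested were called. The rule used this contrast, so nothing is read from that count. The called members had a median W pea-size mean of 118 CPM and a median log2FC of -1.84, while the 168 others had a median of 19.3 CPM and -1.47. An unadjusted p of at most 0.05 was reached by 147 members, from which nothing is read either. The count moved with the libraries and the tool. Leaving out replicate 1 of W maturity gave 19, where 0.321% of all gene models were called. Leaving out replicate 1 of W pea-size gave 17 (0.343% of all gene models), leaving out replicate 3 of W pea-size gave 52 (1.49%), and DESeq2 called 64 (1.15%).

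The member with the highest W pea-size level, evm.model.chr4.1002 on chromosome 4, had 212, 196 and 211 CPM in W maturity and 409, 485 and 684 CPM in W pea-size. In S it had 252, 322 and 262 CPM at maturity and 217, 210 and 198 CPM at pea-size. W at the pea-size stage stood above all other groups, and the stages did not overlap in S either, with maturity higher. Its log2FC was -1.37 (SE 0.26) in W, with an adjusted p of 0.0119 in edgeR's quasi-likelihood test, and 0.58 (SE 0.25) in S, with an adjusted p of 0.195 in the same test. The mean of S was flat by the rule at a ratio of 1.34, near the upper border of the band.

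The member with the largest fitted fall in W among the 164 with at least 5 CPM in both S groups and a count in every library was evm.model.chr11.479 on chromosome 11. It had 0.425, 0.406 and 1.54 CPM in W maturity and 13.5, 12.0 and 7.85 CPM in W pea-size. In S it had 0.190, 9.87 and 14.5 CPM at maturity and 8.14, 4.19 and 5.54 CPM at pea-size. The W stages were well apart, and in S one maturity library was far below and both others were above every pea-size library. Its log2FC in W was -3.77 (SE 1.04), with an adjusted p of 0.113 in edgeR's quasi-likelihood test, so the fall was not called. W maturity replicates 1 and 2 held 2 and 3 counts of it. DESeq2 gave a log2FC of -3.78 and an adjusted p of 0.0015.

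The next largest fitted falls were on chromosomes 4 and 12. The member on chromosome 4 had 0.425, 0.812 and 3.57 CPM in W maturity and 29.2, 16.2 and 20.9 CPM in W pea-size, with 3.42, 20.8 and 22.2 CPM in S maturity and 15.7, 17.8 and 8.53 CPM in S pea-size. The member on chromosome 12 had 1.91, 14.1 and 6.17 CPM in W maturity and 96.1, 67.8 and 110 CPM in W pea-size, with 4.93, 120 and 158 CPM in S maturity and 58.4, 99.4 and 77.5 CPM in S pea-size. In both, as in evm.model.chr11.479, S maturity replicate 1 was far below the other S libraries, while replicates 2 and 3 were above every S pea-size library.

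The lowest adjusted p for the fall in W belonged to the member with the third highest pea-size level, on chromosome 17. It had 56.7, 33.4 and 49.9 CPM in W maturity and 303, 415 and 432 CPM in W pea-size, a log2FC of -3.06 (SE 0.29) with an adjusted p of 4.84e-05 in edgeR's quasi-likelihood test. In S it had 119, 22.9 and 25.9 CPM at maturity and 62.3, 72.3 and 55.9 CPM at pea-size. Its S mean ratio of 0.879 therefore combined 1 library above every S pea-size library with 2 below them.

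**Figure D3:**
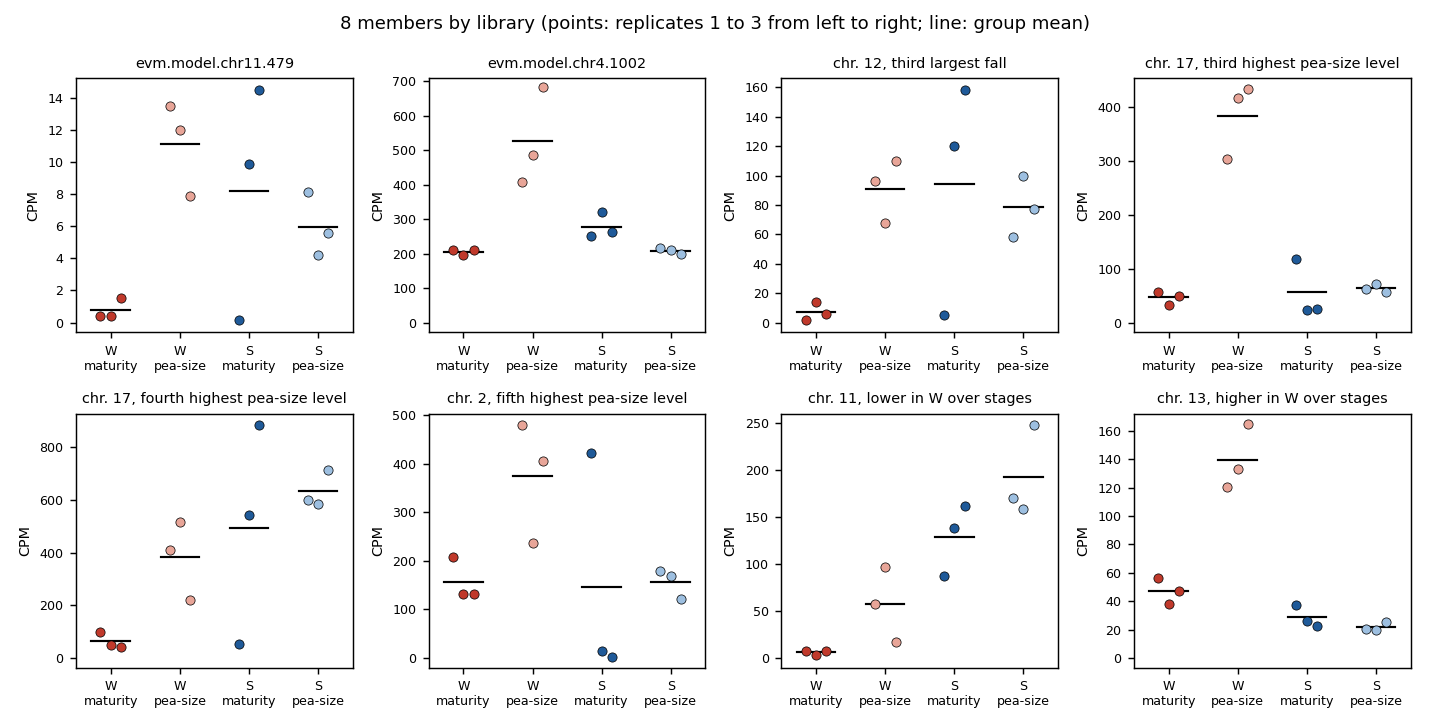
CPM of 8 members in the 12 libraries, with W maturity, W pea-size, S maturity and S pea-size from left to right, replicates 1 to 3 as points and the group mean as a line. In all 8 the W maturity points are below the W pea-size points; in the chromosome 2 member S maturity spans 2.05 to 422 CPM, and in evm.model.chr4.1002 the S libraries stay between 198 and 322 CPM.

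The flat behaviour in S was a property of the mean more than of the single libraries. Taking each S maturity library against the S pea-size mean, all 3 lay inside the 1.5-fold band in 34 members, 2 in 83, 1 in 46 and none in 35. S maturity replicate 1 was below the band in 88 members and above it in 37, with a median ratio of 0.715. Replicate 2 was below the band in 56 and above it in 17, with a median of 0.920, and replicate 3 was below it in 44 and above it in 38, with a median of 1.04. The most frequent pattern, in 52 members, was replicate 1 below the band and both others inside it. In 24 members replicate 1 was above the band and both others below it. The same counts were not made over all gene models, so these patterns are not read as particular to the members.

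The spread was largest in that group. The coefficient of variation over the 3 libraries had a median over members of 41.5% in W maturity and 35.2% in W pea-size, and of 58.0% in S maturity and 23.4% in S pea-size. Over all gene models at 5 CPM or more in W pea-size, the same medians were 26.7% in W maturity, 32.7% in W pea-size, 36.3% in S maturity and 17.4% in S pea-size. Across the 6 S libraries of a member, the highest level was a median 3.36 times the lowest, from 1.23 times in the steadiest member to 202 times in the least steady, with 0.5 CPM added to each.

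The steadiest member in S, on chromosome 4, had 58.7, 71.3 and 58.0 CPM at maturity and 61.1, 68.3 and 60.9 CPM at pea-size. In W the same gene model had 58.4, 48.3 and 53.3 CPM at maturity and 116, 94.5 and 146 CPM at pea-size, so that W at maturity was near the S level and W at pea-size was above it. The least steady, on chromosome 16, had 239, 1.17 and 0.683 CPM in S maturity and 55.1, 59.4 and 57.1 CPM in S pea-size, with 71.2, 51.1 and 40.1 CPM in W maturity and 175, 98.5 and 75.5 CPM in W pea-size. The mean S ratio of this last member, 1.40, rested on replicate 1, with both others far below every S pea-size library. A like pattern was seen in the member with the fifth highest pea-size level, on chromosome 2, with 422, 14.5 and 2.05 CPM in S maturity and 179, 169 and 121 CPM in S pea-size.

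No member was called at maturity in S, in either direction, by edgeR's quasi-likelihood test, where 4.57% of all gene models tested were called higher and 5.03% lower. An unadjusted p of at most 0.05 was reached by 2 members higher and 0 lower. DESeq2 called 0 in either direction, where it called 7.84% of all gene models higher and 7.96% lower. The rule used this contrast too, so nothing is read from these counts. The S stages did not overlap in 8 members, 2 with maturity higher, where 11.5% of all gene models tested did not overlap in that direction, and 6 with maturity lower, where 22% did not. Without S maturity replicate 1, the S ratio of 123 members was still inside the band, that of 48 was below it and that of 27 was above it. The quasi-likelihood test on the 5 remaining S libraries then called 3 members higher and 21 lower at maturity, where it called 13.3% of all gene models tested higher and 14.2% lower. The part of this library in the composition of the list was not tested further.

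**Figure D4:**
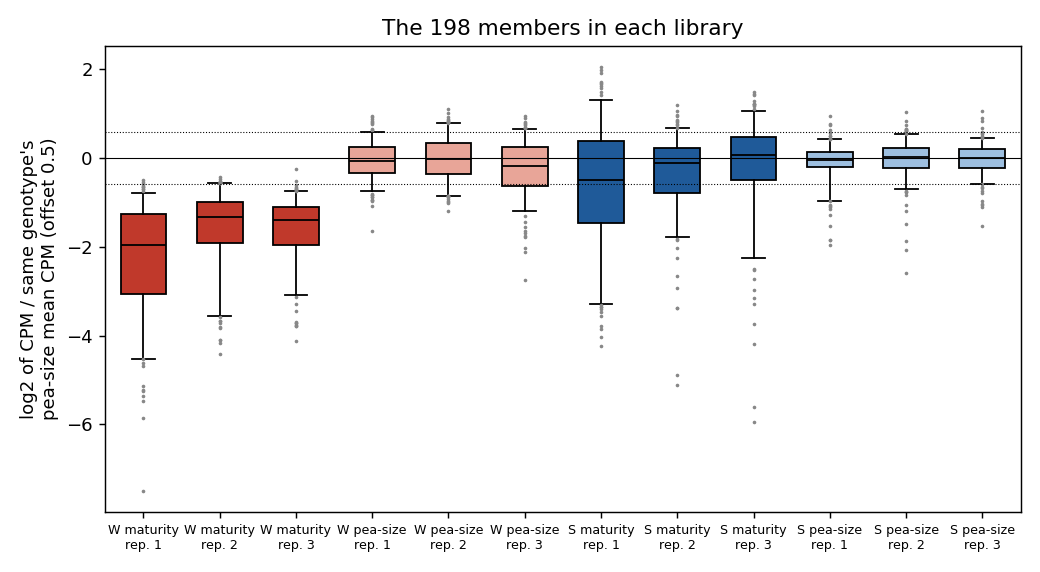
Log2 of the CPM of each of the 198 members over the pea-size mean of the same genotype, by library (box, quartiles; line, median; whiskers, 5th to 95th percentile), with 0.5 CPM added. The W maturity boxes lie below the flat band (dotted lines, 1.5-fold either way), and the box of S maturity replicate 1 is the widest of the S libraries.

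The stage change differed between the genotypes with an adjusted p of at most 0.05 in 3 members, where the interaction term of edgeR's quasi-likelihood test called 1.01% of all gene models tested in this direction. The direction was fixed by the rule, and 0 members were called in the other direction, where 1.29% of all gene models were. The size and p-value of the called interactions rest on the chosen stage changes as well, so nothing is read from them. Besides evm.model.chr4.1002, with an interaction of -1.89 (SE 0.35) on the log2 scale and an adjusted p of 0.0132 in edgeR's test, these were a member on chromosome 13 and one on chromosome 9. The member on chromosome 13 had 56.3, 38.1 and 47.3 CPM in W maturity and 120, 133 and 165 CPM in W pea-size, with 37.2, 25.7 and 22.7 CPM in S maturity and 20.2, 20.03 and 25.02 CPM in S pea-size. The member on chromosome 9 had 3.83, 15.2 and 13.2 CPM in W maturity and 37.7, 29.0 and 62.3 CPM in W pea-size, with 36.9, 26.7 and 30.2 CPM in S maturity and 28.7, 20.03 and 15.4 CPM in S pea-size. In all 3 the S mean was higher at maturity within the band, and replicate 1 of S maturity was not below the S pea-size libraries. The count was 0 when replicate 2 of W maturity, or replicate 2 or 3 of S pea-size, was left out, 1 when replicate 3 of W maturity or replicate 1 of S pea-size was, and 38 when replicate 1 of S maturity was, where the share of all gene models tested was 4.38%. DESeq2 called 29, and 3% of all gene models.

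The rule compared stages within a genotype and set no condition on the level of W against that of S. With the mean of both S groups taken as the S level, this level lay between the W maturity and the W pea-size mean in 117 members, at or above the W pea-size mean in 57 and at or below the W maturity mean in 24. In terms of the same 1.5-fold band, W was above S in 10 members, level with S in 63 and below S in 125 at maturity. At pea-size W was above S in 87, level in 87 and below in 24. Without S maturity replicate 1, the S level was between the W means in 96 members. It was at or above W pea-size in 65 and at or below W maturity in 37. At maturity W was then above S in 29, level in 55 and below in 114. All these counts share the W libraries with the rule and are a description, and those without this library were in part chosen after seeing the data.

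The most frequent course was thus a level shared by both genotypes at pea-size and a lower level in W at maturity, in 76 members (38.4%). It was found in 11.4% of all gene models at 5 CPM or more in W pea-size. In 52 members (26.3%) W was above S at pea-size and level with S at maturity, a course of 7.29% of those gene models. W was above S at pea-size and below S at maturity in 25 members (12.6%, against 3.55% of those gene models). It was below at both stages in 24 (12.1%, against 9.24%). The genotypes were level at both in 11 (5.56%, against 36.3%), and W was above at both in 10 (5.05%, against 7.25%). The rule made W fall relative to S in every member, so nothing is read from these shares against those of all gene models. The courses were not counted without S maturity replicate 1.

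**Figure D5:**
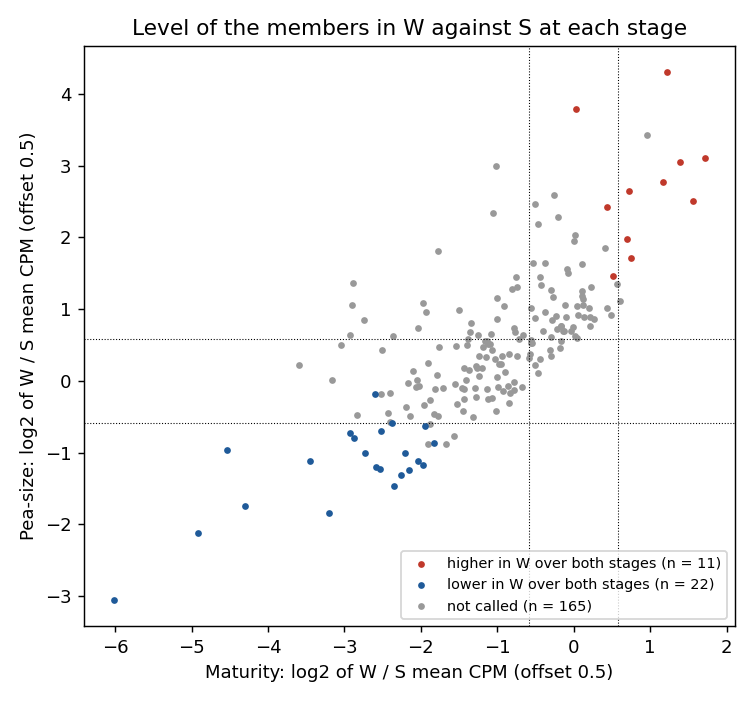
Log2 of W over S mean CPM at maturity (horizontal) and at pea-size (vertical) for the 198 members, with 0.5 CPM added and dotted lines at 1.5-fold either way. Red and blue points are the 11 members called higher and the 22 called lower in W over both stages by edgeR's quasi-likelihood test, and grey points are the 165 others.

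The difference between W and S averaged over both stages was tested. It was not a condition of the rule, apart from the floor of 5 CPM on W pea-size. It holds the W and S values that the rule chose on, however, so the counts are a description and not an independent test. Of the 198 members, 11 (5.56%) were called higher in W, where 3.67% of all gene models tested were called, and 22 (11.1%) were called lower in W, where 6.6% of all gene models tested were called. The members had to reach 5 CPM in W pea-size and had no floor in S, so all gene models tested are not a like background. Among the 12533 tested gene models with that floor, a background chosen after seeing the data, 4.92% were called higher in W and 4.41% lower. The median log2 difference was -0.29 over the members, -0.06 over all gene models tested and 0.09 over those with the floor, and the fitted difference was above 0 in 81 members and below 0 in 117. All 6 W libraries were above all 6 S libraries in 4 members, where 1.94% of all gene models tested were, and below them in 3, where 2.93% were. Without S maturity replicate 1, 27 members were called higher and 42 lower in W, against 7.58% and 10.4% of all gene models. Of the gene models that fell in W with an S ratio below the band, 12.0% were called higher and 16.1% lower in W. With an S ratio above the band, these shares were 8.11% and 12.6%. Of the 174 gene models that rose in W by the mirrored rule with S flat, 10.9% were called higher and 5.17% lower. A raised share lower in W was thus not particular to the members.

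Among the members called higher in W, the pair with the largest fitted values had 250 and 148 counts over the 6 W libraries, against 3 and 6 counts over the 6 S libraries, so that their fitted size depends on how zeros are treated. The other 9 had log2 differences of 1.12 to 2.68. The fourth in this order, on chromosome 17, had 26.1, 21.4 and 20.2 CPM in W maturity and 35.7, 29.0 and 82.9 CPM in W pea-size, against 5.41, 8.85 and 10.6 CPM in S maturity and 5.401, 6.13 and 4.98 CPM in S pea-size. Every W library was above every S library, and the log2 difference was 2.40 (SE 0.30) with an adjusted p of 0.000264 in edgeR's quasi-likelihood test. The chromosome 13 member with a called interaction also belonged here, at 1.77 (SE 0.23) with an adjusted p of 0.000329 in the same test. In 8 of the 11, W was above S by more than 1.5-fold at both stages.

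Among the 22 members called lower in W, the log2 differences were between -1.15 and -4.47, and in 20 of them W was below S by more than 1.5-fold at pea-size already. The largest difference was found on chromosome 10, with 0, 7.44 and 4.22 CPM in W maturity and 55.5, 22.3 and 8.11 CPM in W pea-size, against 21.4, 434 and 396 CPM in S maturity and 233, 202 and 290 CPM in S pea-size. Its log2 difference was -4.47 (SE 0.85) with an adjusted p of 0.00767 in edgeR's quasi-likelihood test. S maturity replicate 1 was again the lowest S library and overlapped with W pea-size. A member on chromosome 11 had 7.65, 2.84 and 7.63 CPM in W maturity and 57.4, 96.5 and 17.3 CPM in W pea-size, against 87.0, 138 and 162 CPM in S maturity and 170, 159 and 248 CPM in S pea-size, with a log2 difference of -2.97 (SE 0.39) and an adjusted p of 0.000617 in that test.

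The member with the largest fall by the ratio with 0.5 CPM added, 17.9-fold, was also among those lower in W. It lies on chromosome 15 and had 0, 7.17 and 6.50 CPM in W maturity and 115, 142 and 12.9 CPM in W pea-size, against 173, 79.7 and 98.4 CPM in S maturity and 201, 180 and 146 CPM in S pea-size. W pea-size replicate 3 lay closer to the W maturity libraries than to the other pea-size libraries, and edgeR's quasi-likelihood test gave an adjusted p of 0.493 for the fall in W and 0.0270 for the genotype difference of -2.73 (SE 0.70). The member with the fourth highest W pea-size level, on chromosome 17, had 99.5, 49.8 and 43.4 CPM in W maturity and 410, 517 and 219 CPM in W pea-size, against 52.8, 543 and 884 CPM in S maturity and 599, 585 and 712 CPM in S pea-size. Its genotype difference was -1.67 (SE 0.49) with an adjusted p of 0.0428 in edgeR's quasi-likelihood test.

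A stricter reading of the pattern, at least a 2-fold gap between the W stages and all 3 S maturity libraries inside the band, was met by 5 members. It was set after their values were seen, and 3 of the 5 were at or below 2.18 CPM in every S library. The other two lie on chromosomes 18 and 13. The chromosome 18 member had 1.70, 4.46 and 5.12 CPM in W maturity and 11.4, 17.9 and 16.4 CPM in W pea-size, against 20.3, 17.8 and 27.1 CPM in S maturity and 22.98, 23.8 and 22.5 CPM in S pea-size, so that the W mean was below the S mean at both stages. Its log2FC in W was -2.04 with an adjusted p of 0.282 in edgeR's quasi-likelihood test. The chromosome 13 member had 22.3, 17.4 and 20.9 CPM in W maturity and 53.0, 47.0 and 82.4 CPM in W pea-size, against 18.1, 20.3 and 17.7 CPM in S maturity and 13.9, 27.3 and 16.5 CPM in S pea-size, so that W reached the S level at maturity. Its log2FC in W was -1.61 with an adjusted p of 0.0395 in edgeR's quasi-likelihood test.

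The members were spread over all 20 chromosomes. Relative to the gene models at 5 CPM or more in W pea-size, their share was 1.58% over all chromosomes. It was highest on chromosome 12, with 18 of 552 gene models (3.26%), and lowest on chromosome 5, with 5 of 722 (0.693%). Chromosome 18 held the largest number, 22 (2.23%). On chromosome 12, 60% of the 30 gene models that fell in W were flat in S, against 37.6% of all 526 that fell in W. These are the highest of 20 shares and were not tested, so nothing is read from them. Pairs of members within 5 positions of each other in the order of gene models numbered 11 and held 22 members (11.1%). The same share was 14.7% for the 217 gene models that fell in W with an S ratio below the band and 14.4% for the 111 with a ratio above it. It was 11.5% for the 174 gene models that rose in W by the mirrored rule with S flat. This share depends on the size of a set, and no expected share was computed, so nothing is read from these values.

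Of these pairs, 4 were direct neighbours. The neighbour of evm.model.chr11.479 had 0.638, 1.35 and 4.22 CPM in W maturity and 10.3, 21.4 and 7.60 CPM in W pea-size, with 0, 11.6 and 18.6 CPM in S maturity and 10.2, 5.82 and 7.11 CPM in S pea-size, which follows evm.model.chr11.479 in having its lowest S value in S maturity replicate 1. On chromosome 13, the member with a called interaction and the one that reached the S level at maturity were direct neighbours as well, with W pea-size means of 139 and 60.8 CPM. Neighbouring gene models can be copies that share reads, and since only uniquely mapped reads were counted, the levels of such copies are less certain.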

How the data were processed

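RNA was measured in 12 libraries of pedicel tissue, 3 for each of 4 groups of genotype and stage, grouped by the labels. Per the study's methods, the authors trimmed reads with Cutadapt 3.4, aligned them to the Noble muscadine genome with STAR 2.7.9a and removed duplicates, and the deposited counts are reads that mapped uniquely, counted by HTSeq 0.11.2 for each gene model. Libraries came from a directional kit. The strand setting of the counting is not given in the sources used here, so overlapping gene models are uncertain. The summary lines of the counting (15.2% to 34.7% of a library) name no gene model and were left out of library totals and tests, and the number of columns with values per sample that were not used was 0. A label that reads mature for all 12 libraries was not used, and stages were taken from the stage label.

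Counts were scaled to CPM by the library total for the rule and for all levels. Tests used edgeR 4.0.16 in R 4.3.3, with TMM scaling, its filter on low counts over the 4 groups (minimum count 10) and the robust quasi-likelihood fit, on 18439 gene models, all 198 members among them. The W and S stage changes were fitted on the 6 libraries of the genotype, and the interaction and the genotype difference averaged over both stages on all 12. The last is orthogonal to both stage changes that the rule used, but it rests on the same libraries. A call needed a change of at least 1 log2 unit beside an adjusted p (Benjamini-Hochberg) not above 0.05. The fits were also run on simulated data with 200 changed gene models. These data had a common spread, changes between the genotypes only and no library like S maturity replicate 1. Nothing is read from them for the stage changes or the interaction. Alternatives were DESeq2 1.42.0, other scalings, filters and thresholds, a replicate block and leaving out each library.

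The members, lists and alternatives were chosen with earlier results of these data known. Identifiers were printed for 2 members, the one with the largest fitted fall in W among those with at least 5 CPM in both S groups and a count in every library, and the one with the highest W pea-size mean. Other members were described by rank and chromosome: the next largest falls and levels, those nearest to a border and those with the largest genotype differences, and, chosen after their values were seen, the steadiest and least steady members in S, those with a called interaction, the member at 0 and the direct neighbours. None of the 26394 identifiers was found in the table of the RefSeq annotation of the cultivar Carlos, so names, roles and sequences were not used here.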

Additional observations from a re-analysis of the deposited data

Results flagged for a closer look

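The stage change differed between the genotypes in evm.model.chr4.1002 by a log2 difference of -1.89, W minus S, with an adjusted p of 0.0132 in the interaction test of edgeR's quasi-likelihood fit. All 3 W maturity libraries were below all 3 W pea-size libraries, and all 3 S maturity libraries were above all 3 S pea-size libraries. The same term passed the threshold in 3 members in all. The rule chose members on both stage changes, so the direction of these differences was fixed. Their size and p-values rest on the same choice and are a description only. The call of evm.model.chr4.1002 was also lost when W maturity replicate 2 or 3, or S pea-size replicate 2 or 3, was left out.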

How the results depend on the processing

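Applying the rule with other settings gave 41 members at a W ratio of at most 0.25 and 102 at an S band with a lower border of 0.8 and its inverse as the upper. Leaving out 1 library gave 152 to 378, with 378 without W pea-size replicate 3, 324 without W maturity replicate 2 and 298 without W pea-size replicate 1. TMM scaling gave 238 members, 184 of them shared, and DESeq2's size factors gave 233, 183 of them shared. The summed level of the members under TMM scaling and DESeq2's size factors was 11137 and 11100 CPM in W pea-size and 8378 and 8494 CPM in S pea-size. Library totals in place of TMM moved the median log2FC of all gene models by -0.14 in S, 0.03 in W and -0.10 in the genotype difference. The following counts by library were in part chosen after seeing the data. Leaving out 1 library gave 22 to 37 members with the S level at or below W maturity and 9 to 29 with W above S at maturity, the highest of each without S maturity replicate 1.

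For the genotype difference over both stages, 6 members higher and 6 lower in W passed a log2 difference of at least 2. The 6 are 3.03% of the members, against 1.51% (higher) and 4.31% (lower) of all gene models tested and 1.76% and 1.34% of those at 5 CPM or more in W pea-size, so that for those lower in W the members' share is below that of all gene models, unlike at a log2 difference of 1. DESeq2 called 14 higher and 39 lower (3.75% and 9.26% of all gene models), and leaving out 1 library gave 7 to 27 higher and 15 to 42 lower. The lowest count of members higher in W came without S pea-size replicate 3, and both highest counts came without S maturity replicate 1. For the fall in W, DESeq2 called 64 members (1.15% of all gene models), no filter gave 49 (0.718%), at least 10 counts in every library gave 18 of 137 tested (0.525%), a log2FC of at least 2 gave 12 (0.195%), and leaving out 1 library gave 17 to 52. For the interaction, DESeq2 called 29 (3% of all gene models), at least 10 counts in every library gave 7 (1.83%), and leaving out 1 library gave 0 to 38. For the stage change in S, leaving out 1 library gave 0 to 3 members higher and 0 to 21 lower. The cause of these shifts was not tested, apart from the fewer gene models or libraries that some settings leave. The fall in W of evm.model.chr4.1002 lost its call without W maturity replicate 2 (adjusted p = 0.0617 in edgeR's test), and its interaction lost it without W maturity replicate 2 or 3 or S pea-size replicate 2 or 3 (adjusted p of 0.0506 to 0.0512). For evm.model.chr4.1002 and evm.model.chr11.479, the fitted fall in W, the interaction and the genotype difference kept their direction with each library left out. This was not checked for the other members or for the stage change in S.

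The replicate numbers are shared by all groups. Correlations of the deviations of same-numbered libraries from their group means were -0.0670 to 0.0208 within a genotype and -0.0987 to 0.109 over all pairs of groups. W pea-size with S maturity had 0.109, 0.0569 and 0.0304. No pair of groups was over 0.1 in every replicate, so the libraries were not treated as paired. With the replicate block, 55 members were called lower at maturity in W, 2 had a called interaction, and 11 were called higher and 16 lower in W over both stages, where 1.07%, 0.602%, 3.17% and 4.81% of all gene models tested were called.

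W maturity replicate 1, the shallowest library, held no count of 20 members, among them the chromosome 15 member with 7.17 and 6.50 CPM in replicates 2 and 3, and the part of depth in this was not tested. Each genotype is 1 selection sampled at 2 stages, so other differences between these plants cannot be told apart from fruit attachment.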
